A study of Mus musculus with 8 samples.

Results

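Lyz1, Mptx2, Itln1, Mmp7, Clps and Habp2 are 6 Paneth cell genes other than the defensins, out of 40178 genes listed in the colon and ileum tables together. They were picked by gene symbol, and each symbol matched 1 row in each table. RNAseq was performed on intestinal epithelial cells (IECs), the cells that EDTA releases from the gut wall, from the ileum and the colon of 2 WT IEC mice (Ddx5 +/+, Vil1Cre +) and 2 DDX5 ΔIEC mice (Ddx5 fl/fl, Vil1Cre +). The labels give the age as 8 weeks, and no treatment was given. All 4 groups carried Vil1Cre, a Cre recombinase driven by the villin promoter, which is active throughout the gut epithelium and is not particular to Paneth cells. Mouse numbers in the study's supplementary material tie each ileum library to the colon library of equal genotype and number as samples of 1 animal, so each group rests on 2 mice and the 8 libraries on 4.

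Paneth cells sit at the base of the crypts of the small intestine, beside the stem cells, and secrete granules that hold antimicrobial proteins. The healthy mouse colon lacks them, and its crypts hold deep crypt secretory cells in the corresponding place. The 6 genes cover several roles of the granule and the cell. Lyz1 encodes the lysozyme of Paneth granules, which cuts the peptidoglycan of bacterial cell walls. Itln1 encodes intelectin 1, a secreted lectin that binds sugars of microbial surfaces, and Mptx2 encodes mucosal pentraxin 2, a member of the pentraxin family of pattern recognition proteins. Mmp7 encodes matrilysin, the metalloprotease that cuts mouse pro-alpha-defensins into their active form. Clps encodes colipase, the cofactor that anchors pancreatic lipase to fat droplets, and Habp2 encodes hyaluronan binding protein 2, a serine protease best known from plasma, where it is supplied by the liver.

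Library totals, the reads counted on genes, ranged from 11571061 to 22984283. Ddx5 itself was lower in every DDX5 ΔIEC library than in the WT IEC libraries of its tissue, with a log2 fold change of -1.04 (colon) and -1.07 (ileum), and exons deleted by Cre are not counted apart from the rest. The unit of level is CPM, a count scaled by library size, after TMM normalization over the 8 libraries, with the mean ± SD of 2 mice. The share of counts on Gm10800, Gm10801 and Gm21738, 3 repeat-like genes, was 19.5% in replicate 2 of DDX5 ΔIEC ileum and 0.000956% to 4.04% in the other 7 libraries. With 2 mice in each group, 0.333 is the smallest two-sided p that exact permutation allows, so the p-values given here depend on the spread that edgeR shares across genes. Each SE was back-calculated from edgeR's quasi-likelihood test, as the absolute log2 difference divided by the square root of the F statistic.

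All 6 genes keep the same identifier version in the annotation used here, and all positions are on GRCm38. Lyz1 (ENSMUSG00000069515.6) lies on chromosome 10 from 117287797 to 117292868 on the minus strand, and its paralog Lyz2, the lysozyme of macrophages, lies next to it from 117277331 to 117282321. Mptx2 (ENSMUSG00000079180.4) and Itln1 (ENSMUSG00000038209.12) are both on the minus strand of chromosome 1, from 173274382 to 173277777 and from 171518122 to 171535294. The paralog of Mptx2, Mptx1, is on the plus strand of the same chromosome from 174330518 to 174332873. Mmp7 (ENSMUSG00000018623.9) lies on chromosome 9 from 7692090 to 7699585, plus strand, and overlaps the antisense gene AV064505. Clps (ENSMUSG00000024225.5) lies on chromosome 17 from 28558149 to 28560766, minus strand, and contains the miRNA gene Mir6969. Habp2 (ENSMUSG00000025075.14) lies on chromosome 19 from 56287137 to 56320822, plus strand, and overlaps Nrap on the opposite strand. The libraries were stranded, but the strand setting of the counting is not given in the sources used here, so reads of Mmp7 and Habp2 cannot be told apart from reads of those partners.

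The paralogs matter for reading Mptx2 and Lyz1, because reads of 100 bases were counted when they mapped uniquely. The 657 coding bases of Mptx2 and Mptx1 were 91.9% identical, with 53 mismatches, and their longest identical run was 109 bases. Windows of 100 coding bases differed at 0 to 15 positions, so some reads could be placed in either gene and others could not. The 2 extremes within exon 2 of 2 are shown, in the sense of the transcript, with mismatches between the 2 genes in capitals. The first pair is chr1:173274957-173275056 on the minus strand (Mptx2) and chr1:174332194-174332293 on the plus strand (Mptx1), without a mismatch, and the second pair is chr1:173274497-173274596 (Mptx2) and chr1:174332654-174332753 (Mptx1), with 15.
Mptx2, closest window: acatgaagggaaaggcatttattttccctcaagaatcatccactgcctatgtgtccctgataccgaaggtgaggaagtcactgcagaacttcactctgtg
Mptx1, closest window: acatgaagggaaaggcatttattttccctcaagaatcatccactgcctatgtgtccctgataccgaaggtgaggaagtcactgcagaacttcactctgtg
Mptx2, most different window: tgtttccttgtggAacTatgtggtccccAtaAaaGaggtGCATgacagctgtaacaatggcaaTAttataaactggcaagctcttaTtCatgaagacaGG
Mptx1, most different window: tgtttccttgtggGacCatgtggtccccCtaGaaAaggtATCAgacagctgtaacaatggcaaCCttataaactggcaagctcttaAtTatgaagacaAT

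Lyz1 and Lyz2 were closer still, with 22 mismatches in 444 coding bases (95.0% identity) and a longest identical run of 118 bases. Their most different 100 coding bases within an exon lie in exon 1 of 4, at chr10:117292707-117292806 (Lyz1) and chr10:117282111-117282210 (Lyz2), both on the minus strand, and differ at 13 positions, again in capitals.
Lyz1, most different window: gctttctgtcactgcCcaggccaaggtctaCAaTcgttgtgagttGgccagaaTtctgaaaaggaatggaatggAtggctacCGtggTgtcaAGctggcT
Lyz2, most different window: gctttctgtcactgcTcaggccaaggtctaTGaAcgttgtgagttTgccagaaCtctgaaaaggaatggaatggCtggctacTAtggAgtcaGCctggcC

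Of the 50-base words in the transcripts, 18.0% of Mptx2 also occur in Mptx1, 16.1% of Lyz1 also occur in Lyz2, and 0.972% of Itln1 also occur in Gm9765. No 50-base word of Mmp7, Clps or Habp2 was found in another gene. Counts of Mptx2, Mptx1, Lyz1 and Lyz2 are uncertain where the other gene of the pair is far more abundant.

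In WT IEC, all 6 genes were higher in the ileum than in the colon, by 5.35-fold for Clps, the smallest difference, and by 1479.6-fold for Lyz1. edgeR's quasi-likelihood test over the 4 group means called the 5 genes that could also be tested within the colon higher in the ileum at an adjusted p-value under 0.05, where 17.4% of the 16178 genes tested were called in that direction. Habp2, with 0 WT IEC colon counts, entered this fit only through its ileum counts, so its difference is given as a bound and not as a call. The median log2 difference of the 5 genes was 5.92, and the median of all genes tested was -0.0181. The number of cells and the RNA per cell cannot be told apart in these bulk libraries, here and in each comparison that follows.

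Lysozyme had the largest fold among the 5 genes with colon counts in WT IEC. Lyz1 was counted 39662 and 13776 times in WT IEC ileum replicates 1 and 2, which is 1827 and 954 CPM, and 18 and 21 times in WT IEC colon, 0.944 and 0.923 CPM. The 2 tissues were far apart, with a log2 difference of 10.53 (SE 0.65, adjusted p = 1.28e-05). Lyz2 stood at 0.921 and 0.208 CPM in the ileum and 0.944 and 0.572 CPM in the colon, so in the colon the counts of both lysozymes were of a like size, with 18 and 13 counts of Lyz2. In the ileum, Lyz2 had 0.0504% and 0.0218% of the counts of Lyz1.

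Habp2 had almost no colon counts. It had 604 and 275 counts in WT IEC ileum (27.8 and 19.0 CPM) and 0 in both WT IEC colon libraries. Against a floor of 3 counts over the group, Habp2 was at least 339-fold higher in the ileum. In DDX5 ΔIEC, 711 ileum counts stood against 1 colon count, a ratio of 1422 with a 95% exact counting interval of 254 to 56257. Intervals and floors cover counting error only. Of 5 hepatocyte markers, Apoh had the most counts in the ileum libraries, 91 to 173, followed by Ttr with 11 to 29, while Alb and Serpina1c had 0 to 3 each and Fgb 0 to 1. In the colon, Ttr had 258 to 491 counts and Alb 9 to 19. Summed levels of the list were 7.34 to 17.7 CPM in the ileum and no more than 28.3 CPM in the colon.

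Itln1 was the most abundant of the 6 in the ileum. Its level was 2204 and 1507 CPM in WT IEC ileum and 75.2 and 72.2 CPM in WT IEC colon, a log2 difference of 4.66 (SE 0.43, adjusted p = 9.997e-05). Mmp7 stood at 189.9 and 121 CPM in the ileum and at 1.47 and 1.49 CPM in the colon, a log2 difference of 6.71 (SE 0.34, adjusted p = 4.85e-06). For both, every ileum library lay above every colon library, and the colon level of Mmp7 rests on 28 and 34 counts.

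Clps reached 177 and 179 CPM in WT IEC ileum and 34.0 and 32.7 CPM in WT IEC colon, a log2 difference of 2.42 (SE 0.17, adjusted p = 2.71e-05). Colipase is a product of pancreatic acinar cells, so their markers were read beside it. Of 8 acinar markers, the 7 other than Cela1 summed to 0 to 8 counts in the ileum libraries and to 1 to 53 in the colon libraries, where the 53 were in DDX5 ΔIEC replicate 1. Cela1 had 32 to 98 counts in the ileum and 2074 to 3574 in the colon. Pnlip, the pancreatic lipase itself, was at 0 in all 4 ileum libraries, whereas Pnliprp2, a lipase related to it, was at 893 and 871 CPM in WT IEC ileum and at 82.0 and 66.7 CPM in WT IEC colon.

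Mptx2 and Mptx1 ran in opposite directions between the tissues. Mptx2 was at 403 and 359 CPM in WT IEC ileum and at 5.35 and 7.21 CPM in WT IEC colon, a log2 difference of 5.92 (SE 0.18, adjusted p = 5.84e-07). Mptx1 was at 132 and 165 CPM in the ileum and at 6989 and 8353 CPM in the colon, a log2 difference of -5.69 (SE 0.25, adjusted p = 3.07e-06). The ileum libraries thus held more Mptx2 than Mptx1, 3.06 and 2.17 counts for each Mptx1 count in WT IEC, while the colon libraries held mostly Mptx1.

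**Figure D1:**
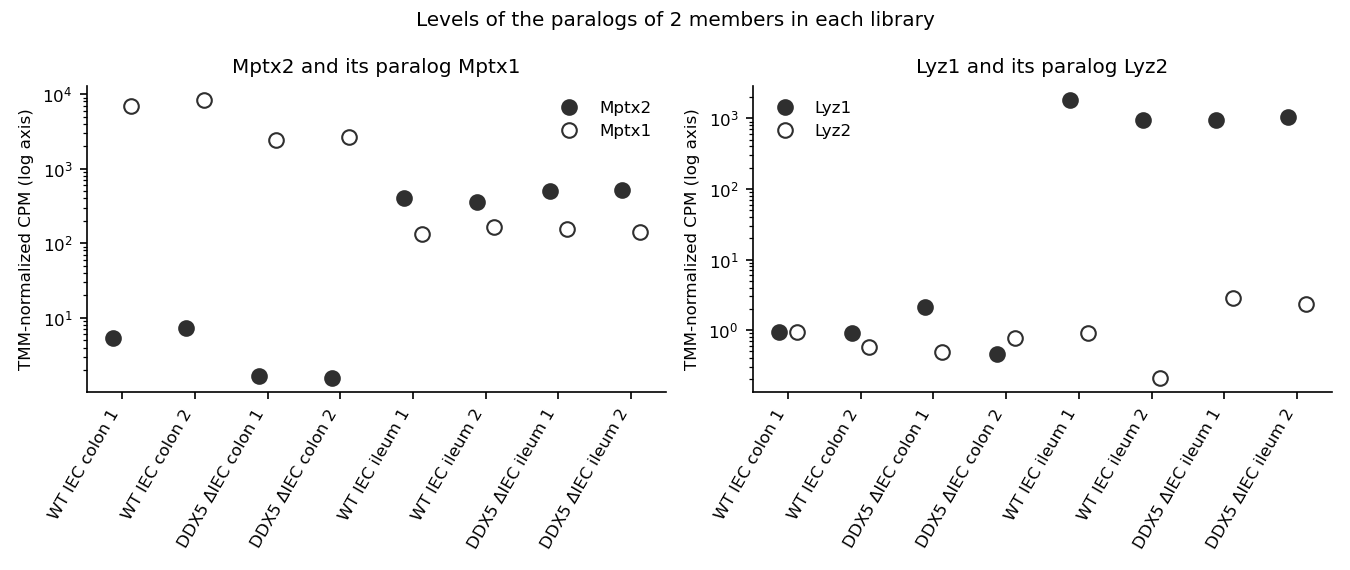
TMM-normalized CPM (log axis) of Mptx2 with Mptx1 (left) and of Lyz1 with Lyz2 (right) in each of the 8 libraries; filled circles are the listed gene and open circles its paralog. Mptx1 lies above Mptx2 in all 4 colon libraries and below it in all 4 ileum libraries, while Lyz1 exceeds Lyz2 by far only in the ileum.

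The sequence just upstream of both genes is shown because the paralogs differ so much between tissues. From 250 to 31 bases before the RefSeq start, at chr1:173277787-173278006 (Mptx2, minus strand) and chr1:174330268-174330487 (Mptx1, plus strand) of GRCm38.p6, the 2 sequences aligned with 70.5% identity over 241 columns. CTTTGA, the core of the motif of TCF/LEF factors, was searched on both strands and occurs once in Mptx1. The aligned bases of Mptx2 differ by G5C, counted from 1 at the 5' end of the motif, and capitals mark both stretches.
Mptx2, upstream: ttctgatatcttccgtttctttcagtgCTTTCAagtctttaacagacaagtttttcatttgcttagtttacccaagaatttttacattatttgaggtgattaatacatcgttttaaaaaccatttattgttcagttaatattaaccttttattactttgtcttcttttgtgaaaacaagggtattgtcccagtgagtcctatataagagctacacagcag
Mptx1, upstream: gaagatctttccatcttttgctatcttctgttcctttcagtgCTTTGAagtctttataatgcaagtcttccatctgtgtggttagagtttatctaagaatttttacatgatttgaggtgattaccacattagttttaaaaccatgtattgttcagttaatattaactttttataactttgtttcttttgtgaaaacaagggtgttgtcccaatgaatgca

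The motif was found in 12.6% of 32851 RefSeq promoter windows of the same length. No match was found in that window of Mptx2, Lyz1, Lyz2, Itln1 or Habp2, nor in the window of the first of 2 Mmp7 starts listed, whereas the window of the other Mmp7 start holds 1 match, and Clps has no entry in the table. CAGCTG, an E-box of bHLH factors such as ATOH1, was in none of the windows of these genes and in 11.4% of all. A match is a description of letters, and its absence says nothing about the factor.

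Per kb of transcript, the scale on which genes can be set side by side, the order of the 6 genes was the same in all 4 ileum libraries: Itln1, Lyz1, Mptx2, Clps, Mmp7, Habp2. In WT IEC ileum, the means were 1626 ± 432 CPM per kb for Itln1, 1101 ± 489 for Lyz1, 479 ± 39.3 for Mptx2, 292 ± 2.47 for Clps, 146 ± 45.4 for Mmp7 and 7.34 ± 1.94 for Habp2 (SD, n = 2). Itln1 and Lyz1 overlapped between mice, and the ranges of the other neighbours did not. In WT IEC colon, the order was Itln1 (64.6 ± 1.87 CPM per kb), Clps (54.6 ± 1.60), Mptx2 (7.91 ± 1.66), Mmp7 (1.39 ± 0.02) and Lyz1 (0.739 ± 0.012), with Habp2 at 0 (SD, n = 2). Lyz1 was thus second in the ileum and last of the detected genes in the colon, which is the largest change of rank among the 6.

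**Figure D2:**
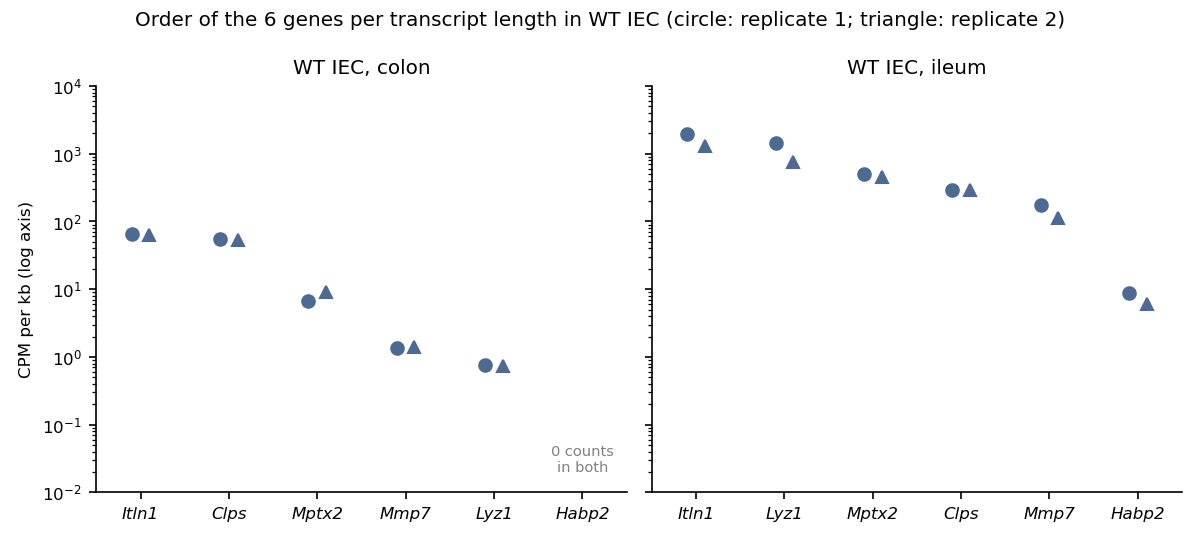
CPM per kb of transcript (log axis) of the 6 genes in WT IEC colon (left) and ileum (right), sorted by mean; circles are replicate 1 and triangles replicate 2. Itln1 leads in both tissues, and Lyz1 moves from second place in the ileum to the end of the detected genes in the colon, where Habp2 had 0 counts.

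The labelled cell type was checked against its markers. Of 9 Paneth markers, 4 are among the 6 genes themselves and were left out of this check. The other 5, Ang4 and 4 alpha-defensins, all had counts in each ileum library, with a summed level of 8669.6 to 13893 CPM. In the colon the sum was 200.1 to 1500.4 CPM, carried in WT IEC by Ang4, an antimicrobial ribonuclease at 1311 and 1500.1 CPM in WT IEC. The 22 Defa genes listed held 7 to 42 counts per colon library, against 102009 to 244288 per ileum library. With alpha-defensins this low in the colon, the cell type label does not hold there, and the 6 genes are described in the colon as transcripts. Together they took 0.456% of all counts in WT IEC ileum replicate 1 (95% Wilson interval 0.453% to 0.459%) and 0.305% (0.302% to 0.307%) in replicate 2, and 0.0128% in both WT IEC colon libraries.

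Loss of DDX5 in the colon was accompanied by less Mptx2, Itln1 and Clps RNA. The study called a transcript changed when its log2 fold change reached 0.5, up or down, at an unadjusted p-value under 0.05. At that criterion 3 of the 5 genes tested were lower and 0 higher, where 3.67% of 15362 genes were called lower and 3.04% higher. The median log2 fold change of the 5 was -0.64, against -0.000422 for all genes tested. No gene of the table passed an adjusted p-value of 0.05 in the edgeR fit, although 1836 had an unadjusted p-value under 0.05, so the 3 calls rest on unadjusted values.

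Mptx2 fell the most. It was at 5.35 and 7.21 CPM in WT IEC colon and at 1.65 and 1.55 CPM in DDX5 ΔIEC colon, without overlap, on 102, 164, 30 and 34 counts. The log2 fold change was -1.97 (SE 0.26, adjusted p = 0.176 by the quasi-likelihood test of edgeR, Benjamini-Hochberg adjustment), a 3.93-fold lower level. Mptx1 fell alongside, from 6989 and 8353 CPM to 2433 and 2647 CPM, by 1.60 on the log2 scale (SE 0.11, adjusted p = 0.0741). Mptx2 counts were 0.0766% and 0.0863% of Mptx1 counts in the WT IEC colon libraries and 0.0680% and 0.0585% in DDX5 ΔIEC, with 95% exact intervals from 0.0405% to 0.101% in all. Whether colon reads given to Mptx2 came from Mptx1 was not tested.

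Itln1 was the next. Its level was 75.2 and 72.2 CPM in WT IEC colon and 14.6 and 36.9 CPM in DDX5 ΔIEC colon, so both DDX5 ΔIEC libraries lay below both WT IEC libraries but differed from each other by more than a factor of 2. The log2 fold change was -1.65 (SE 0.34, adjusted p = 0.268). Within replicate number 1 the DDX5 ΔIEC level was 0.194 of WT IEC, and within number 2 it was 0.511.

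Clps fell by less and more evenly. It was at 34.0 and 32.7 CPM in WT IEC colon and at 20.5 and 22.6 CPM in DDX5 ΔIEC colon, with no overlap and little spread within a genotype. The log2 fold change was -0.64 (SE 0.11, adjusted p = 0.241), a 1.56-fold lower level. Pnliprp2 was lower too, by 3.06 on the log2 scale (SE 0.53, adjusted p = 0.246).

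Lyz1 and Mmp7 did not pass in the colon. Lyz1 was at 0.944 and 0.923 CPM in WT IEC and at 2.09 and 0.455 CPM in DDX5 ΔIEC, which gave a log2 fold change of 0.21 (SE 0.59, adjusted p = 0.908). Mmp7 was at 1.47 and 1.49 CPM in WT IEC and at 0.772 and 1.73 CPM in DDX5 ΔIEC, which gave a log2 fold change of -0.29 (SE 0.40, adjusted p = 0.800). For both genes the DDX5 ΔIEC libraries lay on either side of the WT IEC libraries on 10 to 38 counts per library. Without DDX5 ΔIEC replicate 2 the log2 fold change of Lyz1 was 1.16 and passed the criterion as higher, and without DDX5 ΔIEC replicate 1 it was -1.03 and did not pass. Habp2, with 1 count in 4 libraries, was not tested.

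Markers of other cells moved in the same libraries, where 3.67% of all genes tested were called lower and 3.04% higher. Of the leukocyte markers tested, 3 of 4 were lower in DDX5 ΔIEC colon, and the summed level of the 5 listed was 106 and 107 CPM in WT IEC and 12.5 and 27.0 CPM in DDX5 ΔIEC. The largest part of that sum was Cd74, at 78.4 and 84.7 CPM in WT IEC and 6.73 and 14.7 CPM in DDX5 ΔIEC. Ptprc was at 22.2 and 19.9 against 5.40 and 10.9 CPM, and Cd3e, Cd8a and Cd79a were at no more than 4.20 CPM. Of the goblet cell markers, 2 of 8 were lower and 0 higher (sum 46503 and 51830 CPM in WT IEC, 27867 and 41515 CPM in DDX5 ΔIEC). Among colonocyte markers 4 of 5 were higher and 0 lower (sum 3236 and 3487 against 4018 and 4494 CPM). Of the deep crypt secretory cell markers 1 of 4 was lower and 0 higher (sum 1229 and 1571 against 873 and 833 CPM). Among them, Reg4 was at 522 and 619 CPM in WT IEC and at 195 and 156 CPM in DDX5 ΔIEC. Kit (58.7 and 68.9 against 52.9 and 85.6 CPM) and Cd44 (49.5 and 56.9 against 22.2 and 66.1 CPM) overlapped between genotypes. Spink4 overlapped too (599 and 826 against 603 and 525 CPM). That list is not particular to the colon, since it summed to 2324 to 3449 CPM in the ileum libraries. The 4 epithelial markers held between 7432 and 8557 CPM with none called. The part of these shifts in the fall of Mptx2, Itln1 and Clps was not tested.

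A list of 24 other genes, drawn up as Paneth cell products and regulators, gave 6 lower and 0 higher of 23 tested in the colon. Over all genes tested, 3.67% were called lower and 3.04% higher. The median log2 fold change of the list was -0.26. The list is not particular to Paneth cells. In WT IEC, 7 of the 24 were higher in the ileum and 9 higher in the colon (quasi-likelihood test of edgeR, adjusted p under 0.05). Ang4 fell the most among the antimicrobial products, by 2.35 on the log2 scale (SE 0.20, adjusted p = 0.0866), with Mptx1 and Pnliprp2 given above. The other 3 were regulators. Gfi1, a transcription factor of secretory cells, fell by 0.98 (SE 0.15, adjusted p = 0.229), Bhlha15, a factor of secretory maturation, by 1.17 (SE 0.24, adjusted p = 0.264) and Nod2, a sensor of bacterial peptidoglycan, by 0.90 (SE 0.22, adjusted p = 0.307).

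**Figure D3:**
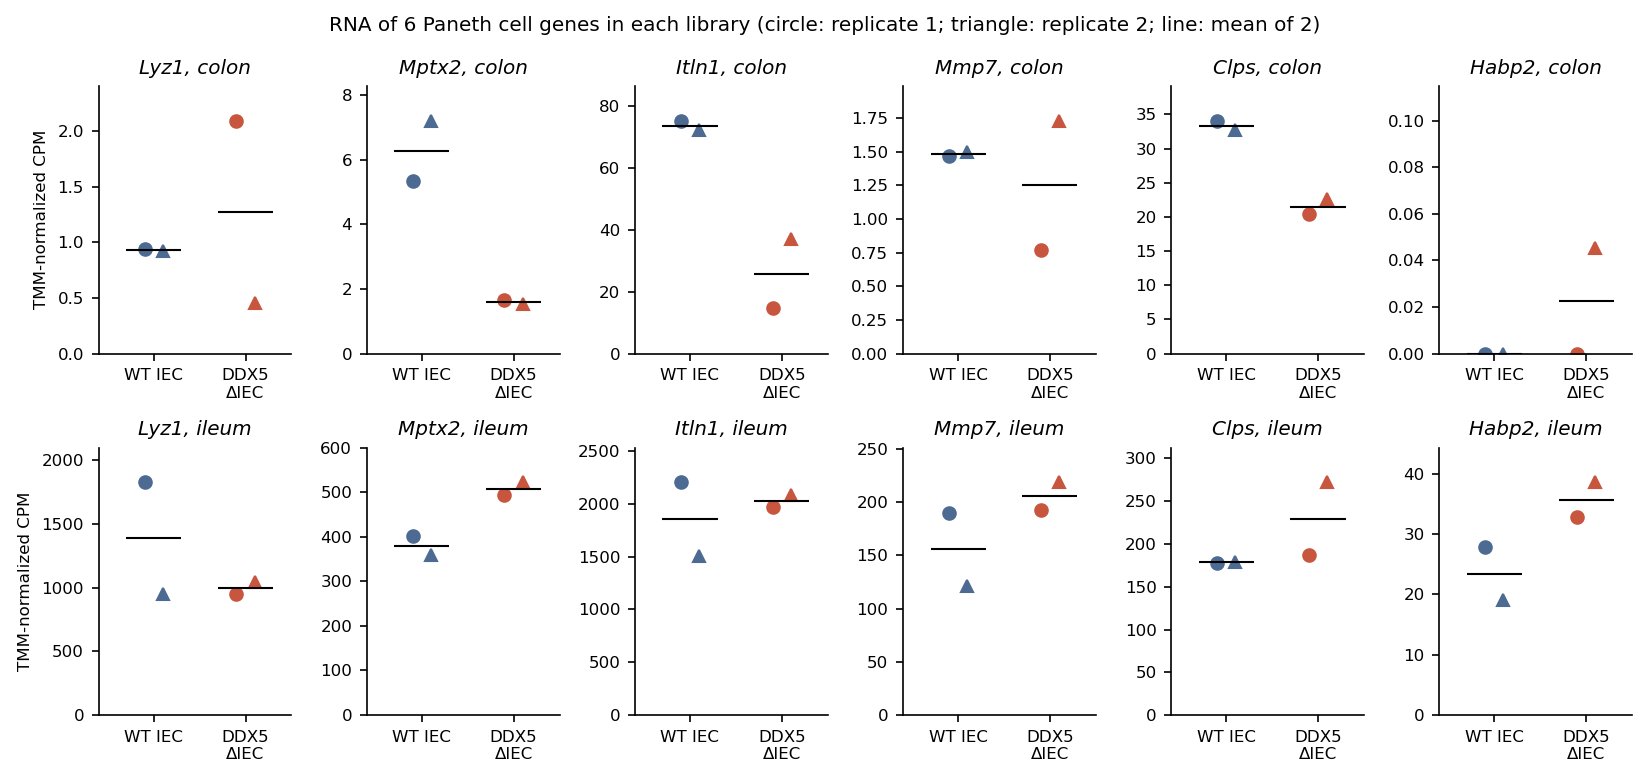
TMM-normalized CPM (linear axis from 0, scaled for each panel) of the 6 genes in the colon (top) and the ileum (bottom), by genotype; circles are replicate 1, triangles replicate 2 and lines the mean of 2 mice. Mptx2, Itln1 and Clps are lower in both DDX5 ΔIEC colon libraries, and Mptx2, Mmp7, Clps and Habp2 are higher in both DDX5 ΔIEC ileum libraries than in both WT IEC ileum libraries.

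In the ileum, where the 6 genes are abundant, the genotypes were closer. At the same criterion 1 of 6 genes was higher, Habp2, and 0 lower, where 3.87% of 14068 genes were called higher and 3.48% lower. The median log2 fold change of the 6 was 0.38 (all genes -0.00457). Together the 6 genes took 0.348% (0.345% to 0.351%) and 0.338% (0.335% to 0.342%) of the counts in DDX5 ΔIEC ileum, between the WT IEC libraries. These are shares of all counts, of which the repeat-like genes held 0.226% and 19.5% in DDX5 ΔIEC replicates 1 and 2. In WT IEC ileum those genes held 4.04% and 3.93%, so the shares do not compare on an equal base.

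Habp2 was at 27.8 and 19.0 CPM in WT IEC ileum and at 32.8 and 38.5 CPM in DDX5 ΔIEC ileum. The groups did not overlap, and the log2 fold change was 0.62 (SE 0.19, adjusted p = 0.204), a 1.54-fold higher level. Of the hepatocyte markers, Apoh, a plasma apolipoprotein, was higher in the same libraries, at 7.97 and 6.30 CPM in WT IEC ileum against 13.2 and 16.2 CPM in DDX5 ΔIEC ileum (log2 fold change 1.03, SE 0.20, adjusted p = 0.0528). Ttr, the other one tested, had a log2 fold change of -0.05 (SE 0.45), and summed levels of the list were 9.58 and 7.34 CPM against 14.4 and 17.7 CPM. The part of this shift in the rise of Habp2 was not tested. The Habp2 call was lost without DDX5 ΔIEC replicate 2, the library rich in repeat-like genes (log2 fold change 0.49), and without WT IEC replicate 2 (0.36). With the repeat-like genes removed and all libraries kept, the call held (log2 fold change 0.63).

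Mptx2 and Mmp7 were also higher in both DDX5 ΔIEC ileum libraries but fell short of the fold threshold. Mptx2 was at 403 and 359 CPM in WT IEC and at 494 and 523 CPM in DDX5 ΔIEC, which gave a log2 fold change of 0.42 (SE 0.17, adjusted p = 0.353). Mmp7 was at 189.9 and 121 CPM in WT IEC and at 193 and 219 CPM in DDX5 ΔIEC, which gave a log2 fold change of 0.44 (SE 0.19, adjusted p = 0.376). The gap between genotypes was narrow for Mmp7, since WT IEC replicate 1 and DDX5 ΔIEC replicate 1 were nearly equal.

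Clps, Itln1 and Lyz1 gave no call in the ileum. Clps was at 177 and 179 CPM in WT IEC and at 187 and 272 CPM in DDX5 ΔIEC, without overlap (log2 fold change 0.34, SE 0.16, adjusted p = 0.426). Itln1 was at 2204 and 1507 CPM in WT IEC and at 1975 and 2083 CPM in DDX5 ΔIEC, which overlap (0.16, SE 0.25, adjusted p = 0.865). Lyz1 was at 1827 and 954 CPM in WT IEC and at 953 and 1047 CPM in DDX5 ΔIEC, and WT IEC replicate 1 stood above the other 3 (-0.40, SE 0.27, adjusted p = 0.599). Of the list of 24 other genes, 3 were higher and 0 lower, where 3.87% of all genes tested were called higher and 3.48% lower. The median log2 fold change of the list was 0.08. RNA of Pla2g2a, a phospholipase gene, rose by 1.05 (SE 0.23, adjusted p = 0.0764) and that of Bhlha15 by 0.59 (SE 0.17, adjusted p = 0.180). Lyz2 rose by 2.18 (SE 0.49, adjusted p = 0.0894) on 20 and 3 counts in WT IEC libraries, against 30 and 22 in DDX5 ΔIEC. The 4 macrophage markers other than Lyz2 summed to 3.04 and 2.29 CPM in WT IEC libraries, against 3.09 and 4.16 CPM in DDX5 ΔIEC, and their part in the rise of Lyz2 was not tested.

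**Figure D4:**
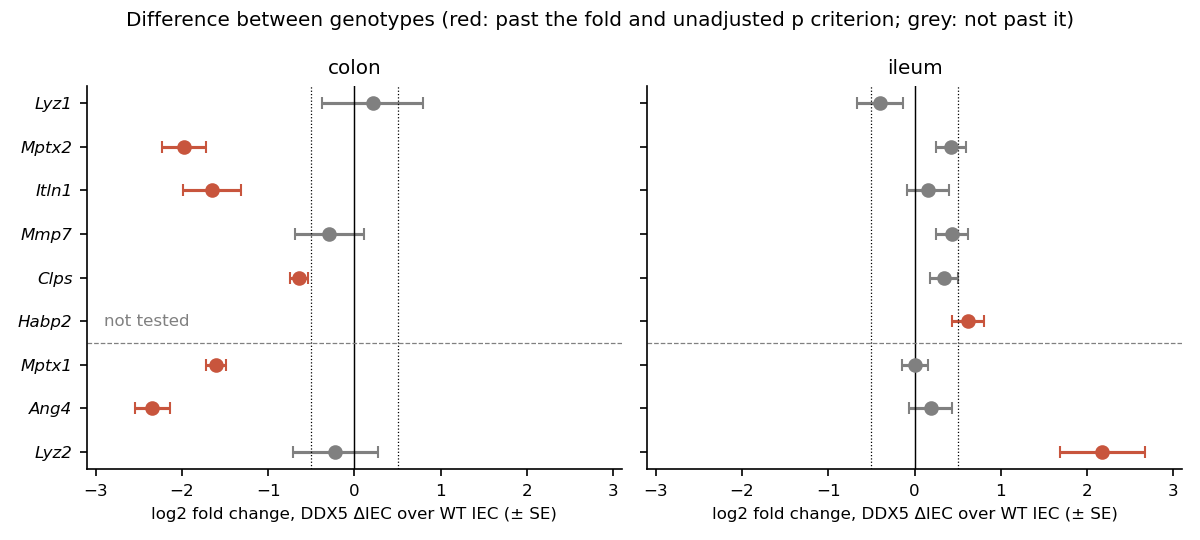
Log2 fold change of DDX5 ΔIEC over WT IEC with its SE (edgeR, x axis) for the 6 genes and, under the dashed line, Mptx1, Ang4 and Lyz2, in the colon (left) and the ileum (right). The SE was back-calculated from the F statistic of the test. Dotted lines mark 0.5 in either direction and red points passed the criterion. In the colon, Mptx2, Itln1 and Clps lie left of the dotted line together with Mptx1 and Ang4, and in the ileum Habp2 and Lyz2 alone lie to the right with red points.

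Whether the effect of DDX5 loss differed between the tissues was tested as an interaction over all 8 libraries. It passed an adjusted p-value of 0.05 for 1 of the 6 genes, Mptx2, where 2 of 16178 genes (0.0124%) did. The log2 fold change of Mptx2 in the ileum exceeded that in the colon by 2.39 (SE 0.24, adjusted p = 0.0497), and with the mouse as replicate block by 2.39 with an adjusted p of 0.0918. The call was lost in 8 of 13 alternatives, among them 7 of the 8 that leave out 1 library. Clps (0.99, SE 0.24, adjusted p = 0.935) and Itln1 (1.64, SE 0.53, adjusted p = 1.00) differed in the same direction at unadjusted p-values only. Lyz1 (-0.87, SE 0.78) and Mmp7 (0.61, SE 0.48) did not differ at an unadjusted p-value under 0.05, and Habp2, with 1 colon count, gives no usable difference. The colon term of Mptx2 carries the doubt about Mptx1 reads stated above.

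The genes most like each member were found among 13100 protein-coding genes, by the root mean square difference between mean-centred log2 CPM profiles over the 8 libraries. The profiles are dominated by the step between tissues, which all libraries of a tissue share. For Lyz1 they were Olfm4, a stem cell gene (0.43), and the alpha-defensin genes Defa21 and Defa22 (0.48 each), whose near-identical copies make their counts uncertain. For Mptx2 they were Gata5 (0.55), Mmp7 (0.59) and Gm15292 (0.61), and for Mmp7 Gm15292 (0.25), Fam234b (0.31) and Gata5 (0.32). For Itln1 they were Dnm1 (0.24), Exoc3l4 (0.35) and Malrd1 (0.47). For Clps they were Rbp7 (0.24), Ptgs1 (0.25) and Rdh7 (0.25), and for Habp2 Flvcr2 (0.29), Slc30a2 (0.29) and Aqp7 (0.34). Mptx2 was the least closely matched of the 6, and Mmp7 was the only member among the 3 nearest genes of another.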

How the data were processed

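The authors aligned paired-end reads of ribosome-depleted RNA to mm10 with STAR 2.6.1a, counted uniquely mapped reads over exons with featureCounts, and deposited whole-number counts per gene for each tissue (colon, 28349 genes; ileum, 38649 genes). The same tables hold the authors' normalized values and DESeq2 1.18.1 comparison, which were not used, and a gene length, used for CPM per kb. No per-sample count column was left out (0).

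The counts were analysed with edgeR 4.0.16 in R 4.3.3 (filterByExpr with a minimum count of 10, TMM, quasi-likelihood test, Benjamini-Hochberg adjustment over all genes tested), within each tissue with genotype and the replicate number, used in place of the harvest covariate of the study's methods, although no source used here says which mice shared a harvest. The study describes cohoused littermate pairs, and the labels do not say whether the number marks a pair. WT IEC ileum against colon and the interaction came from 1 fit of 4 group means over 8 libraries. A gene absent from a table was taken as 0. The tissues pair by mouse, from the mouse numbers in the study's supplementary material, and that pairing is an alternative. Total counts were 11571061 to 22984283 per library, and intervals are 95% Wilson or exact binomial.

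The 6 members are named with all values, as are genes of the other Paneth list that pass the criterion or are paralogs, and the 3 nearest protein-coding genes of each member (0.5 CPM added before log2). The members, lists and rules were chosen with earlier results of these data known. Positions are from GENCODE vM21 (GRCm38), promoters from RefSeq (GRCm38.p6). Alternatives were DESeq2 1.42.0, RLE, no filter, no block, 1 joint fit, removal of repeat-like genes and each library left out. Fits were tested on simulated data with the same spread for all genes, in which genes of low mean count were left unchanged. The simulation thus says nothing about changes in genes with few counts.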

Additional observations from a re-analysis of the deposited data

Results flagged for a closer look

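Mptx2 stood out because the difference between genotypes was not the same in the 2 tissues: the log2 fold change was -1.97 (colon) and 0.42 (ileum), and edgeR's interaction term was 2.39 (adjusted p = 0.0497). In the 13 alternatives the term was between 2.16 and 2.59, with adjusted p-values from 6.72e-16 to 0.496, and the call was lost in 8 of the 13, including 7 of the 8 with 1 library left out. Every DDX5 ΔIEC library lay below both WT IEC libraries in the colon and above both in the ileum. The colon levels rest on 30 to 164 counts, next to 44134 to 189977 counts of Mptx1, and the part of Mptx1 reads in them was not tested.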

How the results depend on the processing

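Of 277 values for single genes under an alternative, 254 kept their direction and their side of the threshold, 7 passed it newly, 10 lost it and 6 changed sign. The 277 include 13 values of Habp2 between WT IEC tissues and 13 in the interaction, of which 13 and 12 kept both. Habp2 had 1 colon count in all, so its values there say nothing about stability. Mptx2, Itln1 and Clps were lower in the colon under all 11 alternatives, and the 5 genes other than Habp2 were higher in WT IEC ileum than colon under all 13. With each library left out, where the lone sample is assumed to vary like the other groups, the number of genes called was 3 to 4 in the colon, 0 to 3 in the ileum and 0 to 2 for the interaction. Lyz1 then ranged from -1.03 to 1.16 in the colon (1.16 without DDX5 ΔIEC replicate 2, where it passed the criterion as higher), from -0.87 to 0.064 in the ileum and from -1.63 to 0.55 in the interaction. Mmp7 ranged from -0.94 to 0.22 in the colon, Itln1 from -0.12 to 0.43 in the ileum and the interaction of Habp2 from -2.26 to 0.60. In the ileum, Mptx2 (0.50) and Mmp7 (0.76) passed the criterion without WT IEC replicate 1, and Clps (0.60) passed without DDX5 ΔIEC replicate 1. The interaction called 0 of the 6 with the mouse as replicate block, where Mptx2 had an adjusted p of 0.0918, and 3 of 6 with no filter on low counts, where all genes called rose from 2 to 210.

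Without the replicate block, the within-tissue comparisons called 3 genes for the colon and 1 for the ileum, as many as with it. The study describes littermate pairs, but the labels do not tie them to the numbers, and deviations of same-numbered libraries correlated at 0.00559 (colon) and 0.240 (ileum). Over all genes, calls at the criterion moved from 1031 to 530 in the colon and from 1034 to 353 in the ileum with DESeq2 and the block, to 458 in the ileum with DESeq2 and no block, to 648 in the colon without WT IEC replicate 1 and 1794 without DDX5 ΔIEC replicate 2, and to 1642 in the ileum without DDX5 ΔIEC replicate 2. Genes differing between WT IEC tissues fell from 5528 to between 3153 and 3631 with 1 WT IEC library left out. Interaction calls were 1 with the mouse as replicate block, 16 with DESeq2 and 0 to 30 with each library left out, 30 without DDX5 ΔIEC colon replicate 2. The causes were not tested. In the colon, Lyz1 and Mmp7 rest on 10 to 38 counts per library and Habp2 on 1 count in all.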

Other observations

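Within a library, ratios of counts do not depend on scaling, and those of Lyz1 to other Paneth cell genes differed between the ileum libraries. Mptx2 had 0.220 and 0.376 counts for each Lyz1 count in the WT IEC libraries, against 0.519 and 0.499 in DDX5 ΔIEC. For Itln1 the ratios to Lyz1 were 1.21 and 1.58 against 2.07 and 1.99, and for Defa24, an alpha-defensin, 2.97 and 3.94 against 5.90 and 5.92. All 3 ratios share Lyz1, were chosen after their values were seen and were not tested, as 2 mice against 2 allow no exact permutation p below 0.333.

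Clps, the colipase gene, and Pnliprp2, a lipase gene, kept a narrow ratio in the ileum, 0.196 to 0.214 Clps counts for each Pnliprp2 count in the 4 libraries. In the colon the ratio was 0.415 and 0.490 in WT IEC libraries, against 4.88 and 1.42 in DDX5 ΔIEC, where Pnliprp2 had 76 and 350 counts. This pair was also chosen after its values were seen, and the ratio was not tested.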
